A study of Mus musculus with 24 samples.

Results

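Satb1 encodes SATB1 (special AT-rich sequence-binding protein), a nuclear protein that anchors chromatin loops at AT-rich DNA. Described here are the 22 contacts of Argonaute 2 (AGO2) in its 3' untranslated region (3' UTR), out of 14634 such peaks in 4165 genes. They are all the rows of the authors' deposited table that carry the gene symbol Satb1. A row is present only because AGO2 reads were found there, and the gene was picked on those reads in both genotypes, so its read values are a description with no test of their own.

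SATB1 folds chromatin and recruits remodelling and deacetylase complexes to gene clusters, and T cells depend on it as they develop in the thymus. In helper T cells it helps to organise the cytokine locus that holds Il4, Il5 and Il13, and in regulatory T cells FOXP3 keeps Satb1 low, in part through microRNAs. AGO2 is the protein that carries a microRNA to messenger RNA. The microRNA pairs mainly through its seed, bases 2 to 8, with a complementary stretch of the 3' UTR, and the usual outcome is less stable or less translated mRNA.

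AGO2 was crosslinked to RNA, immunoprecipitated with a custom rabbit antibody, and the bound fragments were sequenced (HITS-CLIP). The wild-type group was 12 libraries of C57BL/6 CD4+ T cells, and the knockout group was 12 libraries of C57BL/6 CD4+ T cells that lack miR-155, a microRNA that activated lymphocytes induce. All cells were taken from spleen and lymph nodes and stimulated in culture for 4 days with CD3 and CD28 antibodies (1 µg/mL) plus IL-2 (20 U/mL). Each genotype had 6 libraries with each 3' linker, in opposite order: knockout replicates 1 to 6 had the linker of wild-type replicates 7 to 12. In number of libraries, linker was thus balanced between the genotypes. The table gives 1 pooled value per genotype, so no value per library, no replicate error and no fit with the linker could be had. All read numbers below are these pooled, scaled reads, obtained by reversing the deposited log2(1 + reads), and their depth is unknown. Of 10 CD4 T cell markers, 5 had peaks, among them Cd4 (5 peaks), Cd3e (3 peaks) and Cd28 (28 peaks), and no peak was listed for the B cell, CD8 T and NK cell, or erythroid markers. Of 7 myeloid markers 1 had a peak, Mpeg1 (122 scaled reads in wild type, listed at 0 in the knockout). Its p in the authors' deposited table was 2.11e-07 (adjusted p = 7.92e-05, Benjamini-Hochberg over all peaks). A 3' UTR peak shows AGO2 contact, not the level of the mRNA.

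Seed matches were searched in the peaks for 29 listed microRNA families, taking 7-nt and 8-nt matches. Whether these cells contained each of them was not measured here. The classes are 7mer-m8 (bases 2 to 8), 7mer-A1 (bases 2 to 7 followed by an A) and 8mer (both). The mature microRNAs (RefSeq, GRCm38.p6) of the 7 families with a match in a Satb1 peak are shown first, 5′ to 3′, with the seed in capitals, because these peaks held 71.1% of the Satb1 reads.
mmu-miR-155-5p: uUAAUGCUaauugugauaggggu
mmu-miR-21a-5p: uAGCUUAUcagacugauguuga
mmu-miR-23a-3p: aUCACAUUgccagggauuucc
mmu-miR-7a-5p: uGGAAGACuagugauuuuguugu
mmu-miR-34a-5p: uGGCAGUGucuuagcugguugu
mmu-miR-19b-3p: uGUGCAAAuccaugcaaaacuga
mmu-miR-16-5p: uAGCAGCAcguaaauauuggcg

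The 8 matches lie in 7 of the 22 peaks. Each is shown from the deposited peak sequence, 5′ to 3′ on the mRNA, with the seed match in capitals. Positions are on GRCm38, minus strand, from an exact match to GENCODE M21 transcripts, and not on the mm9 build of the submitters' processing notes.
Peak 4, miR-155, 7mer-m8, chr17:51739559-51739580: tggagcctcaaataAGCATTAt
Peak 12, miR-21, 7mer-m8, chr17:51738950-51738971: ttactatcatgcaaATAAGCTt
Peak 13, miR-23, 8mer, chr17:51738899-51738920: aaaattatgcaattAATGTGAA
Peak 13, miR-7, 7mer-m8, chr17:51738870-51738891: gatgtttgcaatgtGTCTTCCt
Peak 8, miR-23, 8mer, chr17:51739234-51739255: taaggaaaagaaAATGTGAAac
Peak 7, miR-34, 7mer-m8, chr17:51739337-51739358: cttgtattgtatggCACTGCCg
Peak 1, miR-19, 7mer-A1, chr17:51739771-51739792: gaatcttcggaaacTTGCACAa
Peak 17, miR-15/16, 8mer, chr17:51737628-51737649: caaaacaagtaacaTGCTGCTA

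The seed match was at or near the middle of most of these peaks. In 5 of the 8 cases its centre lay within 5 nt of the midpoint of the peak, and the miR-19 match of peak 1 lay exactly on it. The miR-155 match of peak 4 and the miR-21 match of peak 12 were both 2.5 nt from the midpoint, on the 3′ side. The 2 matches of peak 13 flanked its centre, with miR-23 at -11.5 nt (5′ side) and miR-7 at 17 nt (3′ side). The miR-23 match of peak 8 was at -8.5 nt. The peaks are narrow, and these positions were not compared with those of matches in other genes.

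Satb1 was one of the most heavily contacted transcripts in these cells, and its AGO2 reads were higher without miR-155. Its peaks held 1389 wild-type and 2479 knockout scaled reads, a 1.78-fold higher sum in the knockout (log2 of wild type over knockout, -0.84). With 3868 reads in all (0.519% of the table) it was 12th of 4165 genes. How much of a difference in reads comes from the amount of Satb1 mRNA and how much from AGO2 contact per mRNA cannot be told apart, since no RNA level is in the table, and neither can fewer cells with Satb1 mRNA and less of it per cell. The sums over all peaks of the table were 371088 (wild type) and 374126 (knockout), a log2 ratio of -0.01.

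Most peaks along the 3' UTR had more reads in the knockout. Of the 22 peaks, 19 had more reads in the knockout and 3 had more in wild type, beside 43.3% of all peaks with more in the knockout. The median log2 ratio of the Satb1 peaks in the authors' deposited table was -0.86, and that of all peaks was 0.20 (quartiles -0.61 and 1.33). Among well-read peaks the knockout was more often the higher one across the table, 57.1% of the 1403 peaks with at least 100 reads, and all 8 Satb1 peaks of that depth were higher in the knockout. Without the most-read peak, the log2 ratio of summed reads was -0.95.

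No Satb1 peak passed the test in the authors' deposited table once its p-values were adjusted (Benjamini-Hochberg, over all 14634 peaks). At an adjusted p below 0.05, 0 Satb1 peaks were lower in the knockout, beside 0.574% of all peaks, and 0 were higher, beside 0.0273%. The smallest adjusted p of a Satb1 peak was 0.978. At an unadjusted p below 0.05, 0 were lower in the knockout, beside 2.72% of all peaks, and 3 were higher (peaks 11, 13 and 18), beside 1.48%. The spread between libraries behind these p-values is unknown, and the 22 peaks share 1 transcript, so they are not replicates of each other.

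**Figure D1:**
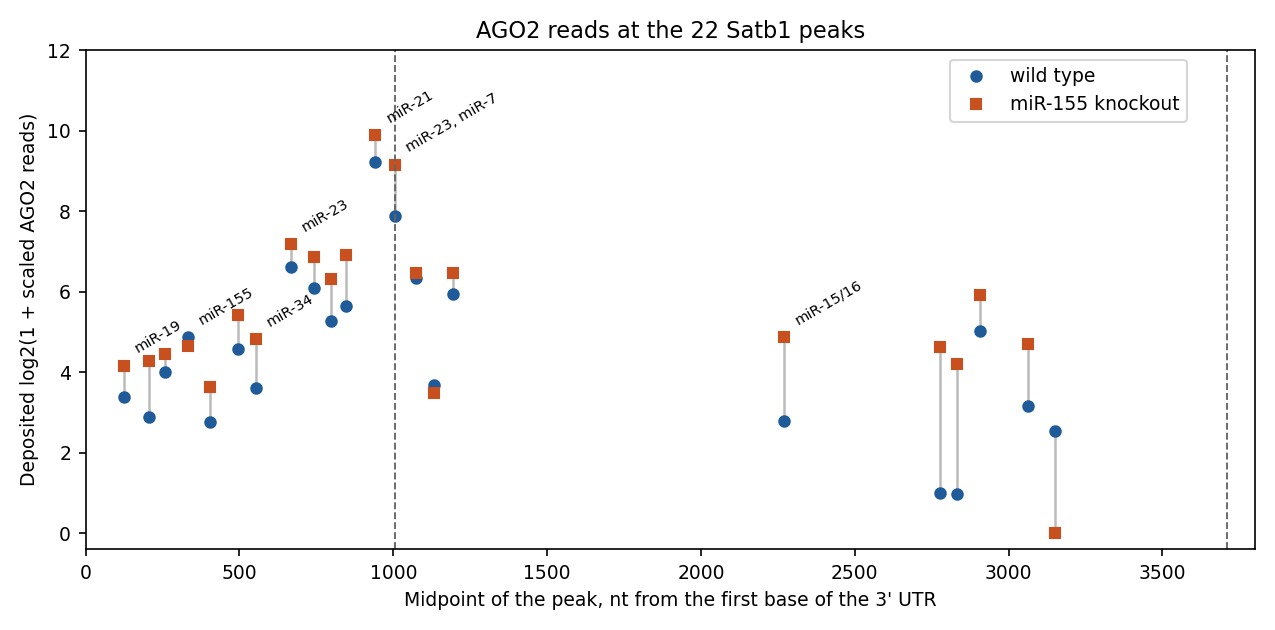
Deposited log2(1 + scaled AGO2 reads) at the 22 Satb1 peaks (vertical axis) against the midpoint of each peak in nt from the first base of the 3' UTR (horizontal axis), with circles for wild type, squares for the miR-155 knockout, a grey line joining the pooled values of a peak, and the families with a 7-nt or 8-nt seed match written beside the peak. The squares lie above the circles at 19 peaks, the highest pair is peak 12, and the dashed lines mark annotated 3' UTR ends at 1004 and 3711 nt.

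**Figure D2:**
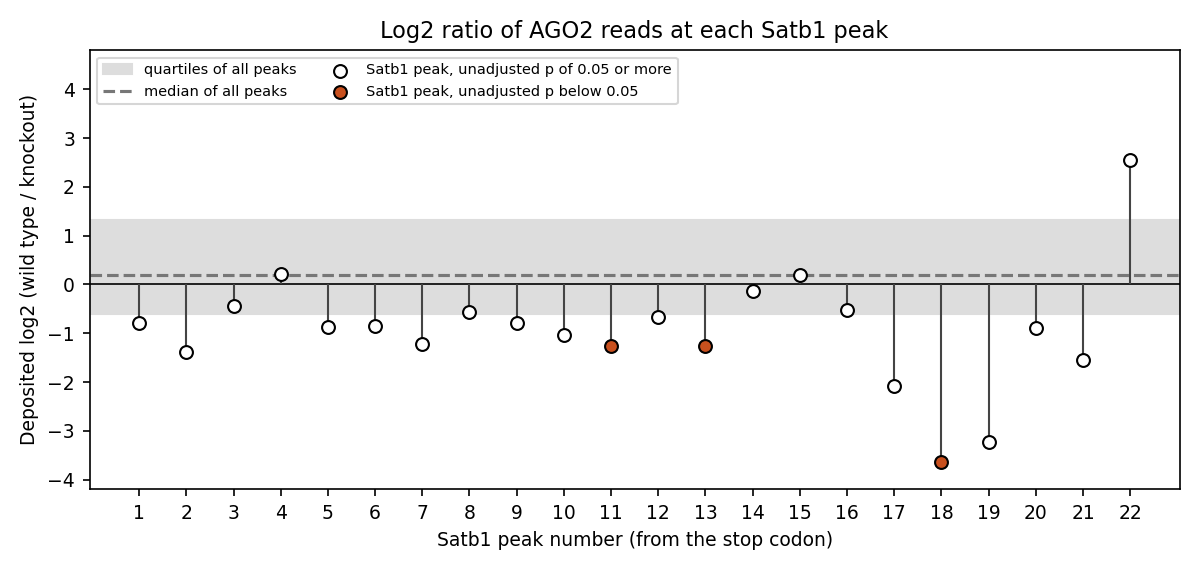
Deposited log2 ratio of wild type over knockout (vertical axis) for each Satb1 peak, numbered from the stop codon (horizontal axis); the band and the dashed line are the quartiles and median of all 14634 peaks, and filled points are the 3 peaks with an unadjusted p below 0.05. Peaks 4, 15 and 22 lie above 0 and the other 19 below it.

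The reads were concentrated in a short stretch about 1000 nt from the stop codon. Peak 12, which carries the miR-21 match, held 600 wild-type and 951 knockout reads, 1.59-fold more. It spans positions 925 to 958 of the 3' UTR (chr17:51738940-51738973, exon 11), and its 1551 reads were 40.1% of all Satb1 reads. It held more reads than 99.8% of the peaks in the table.

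Peak 13, just downstream at positions 984 to 1030 (chr17:51738868-51738914), held 236 wild-type and 570 knockout reads. This was 2.42-fold more (p = 0.0356 in the authors' deposited table, adjusted p = 1.00). It carries the miR-23 and miR-7 matches. Peaks 12 and 13 together held 60.9% of the reads, 60.2% of those in wild type and 61.4% of those in the knockout, so this pair took nearly the same share in both genotypes. Without this pair, the other 20 peaks summed to 553 wild-type and 958 knockout reads, 1.73-fold more.

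The peaks around this pair formed a well-read block. From position 649 to 1221, peaks 8 to 16 held 87.9% of all Satb1 reads, and 8 of the 9 were higher in the knockout. Peak 8, with its 8mer to miR-23, had 97.2 wild-type and 144 knockout reads. Peak 9 had 66.8 and 116, and peak 10 had 37.7 and 78.3.

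Peak 11 (positions 831 to 863), the next before peak 12, had 49.2 wild-type and 119 knockout reads, 2.42-fold more (p = 0.0295 in the authors' deposited table, adjusted p = 0.992). None of peaks 9, 10 and 11 held a seed match of the 29 families. In peaks 14 to 16 the genotypes were closer. Peak 14 had 79.6 wild-type and 87.7 knockout reads, 1.10-fold more, and peak 16 had 60.3 and 87.3. Peak 15, which had few reads, was among the 3 that were higher in wild type (11.8 against 10.2).

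Nearer the stop codon the peaks were small. Peaks 1 to 7, from position 94 to 564, held 6.73% of the reads, 98.9 of them wild-type and 162 knockout. Peak 1, with its 7mer-A1 to miR-19, had 9.42 wild-type and 16.97 knockout reads. Peak 7, with its 7mer-m8 to miR-34, had 11.1 and 27.4. Peak 6, the widest at 72 nt, had 22.8 and 42.2 and no listed seed match. Of the other peaks here, peak 2 had 6.42 and 18.5 reads, peak 3 had 15.0 and 20.8, and peak 5 had 5.76 and 11.3.

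Peak 4 carries the only 7-nt or 8-nt match to miR-155 in the annotated 3' UTR, and its reads differed little between the genotypes. It held 28.3 wild-type and 24.3 knockout reads, and the authors' deposited table gives a log2 ratio of 0.21 and p = 0.750. It spans positions 307 to 358 (chr17:51739540-51739591). Its value was close to the median of all peaks, 0.20, and above the Satb1 median of -0.86.

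Most other miR-155 site peaks of this depth had far more reads in wild type. Of the 54 peaks in the table with a 7-nt or 8-nt miR-155 match and at least as many reads as peak 4 (52.6), 53 were higher in wild type and 36 were lower in the knockout at an adjusted p below 0.05. Their median log2 ratio in the authors' deposited table was 3.77 (quartiles 1.92 and 5.80). Peak 4 of Satb1 had the 4th lowest ratio of the 54, after single peaks of Dmtf1, Clint1 and Setd8. Among the 19 such peaks with a 7mer-m8, the class of the Satb1 site, the median was 3.88. The read cutoff counts both genotypes together, so a site peak can pass it through its wild-type reads alone. Without the cutoff, the median was 3.16 over all 265 peaks with a 7-nt or 8-nt miR-155 match. It was 2.98 over the 94 with a 7mer-m8. These are ranks in 1 pooled table, and the difference of peak 4 from the others was not tested.

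No other Satb1 peak held a shorter or imperfect miR-155 match of the kinds searched. A match to bases 2 to 7, of 6 nt or longer, was found in peak 4 alone, and in 2.51% of all peaks. A 7-nt stretch with 1 mismatch to the seed match, in a peak without a 6-nt match, was found in 0 Satb1 peaks and in 6.97% of all peaks.

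In summed reads, the peaks with a seed match and those without one had nearly the same difference between genotypes. The 7 peaks with a match to any of the 29 families summed to 988 wild-type and 1763 knockout reads, 1.78-fold more. Peaks 12 and 13 held 2357 of these 2750 reads, so this sum rests mainly on them. The 15 peaks without a match summed to 401 and 717, 1.79-fold more. The median log2 ratio of single peaks was -0.79 with a match and -0.87 without one. Matches were in 7 of the 22 Satb1 peaks and 43.0% of all peaks, and those Satb1 peaks held 71.1% of the gene's reads. Of the 8 Satb1 peaks with at least 100 reads, 3 held a match, beside 60.3% of all peaks of that depth. In the whole table, peaks with a miR-21 match (1.60% of peaks) had a median log2 ratio of 0.09 and those with a miR-23 match (3.05%) 0.04. The Satb1 peaks with these matches were at -0.66 (peak 12), -0.56 (peak 8) and -1.27 (peak 13) in the authors' deposited table.

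**Figure D3:**
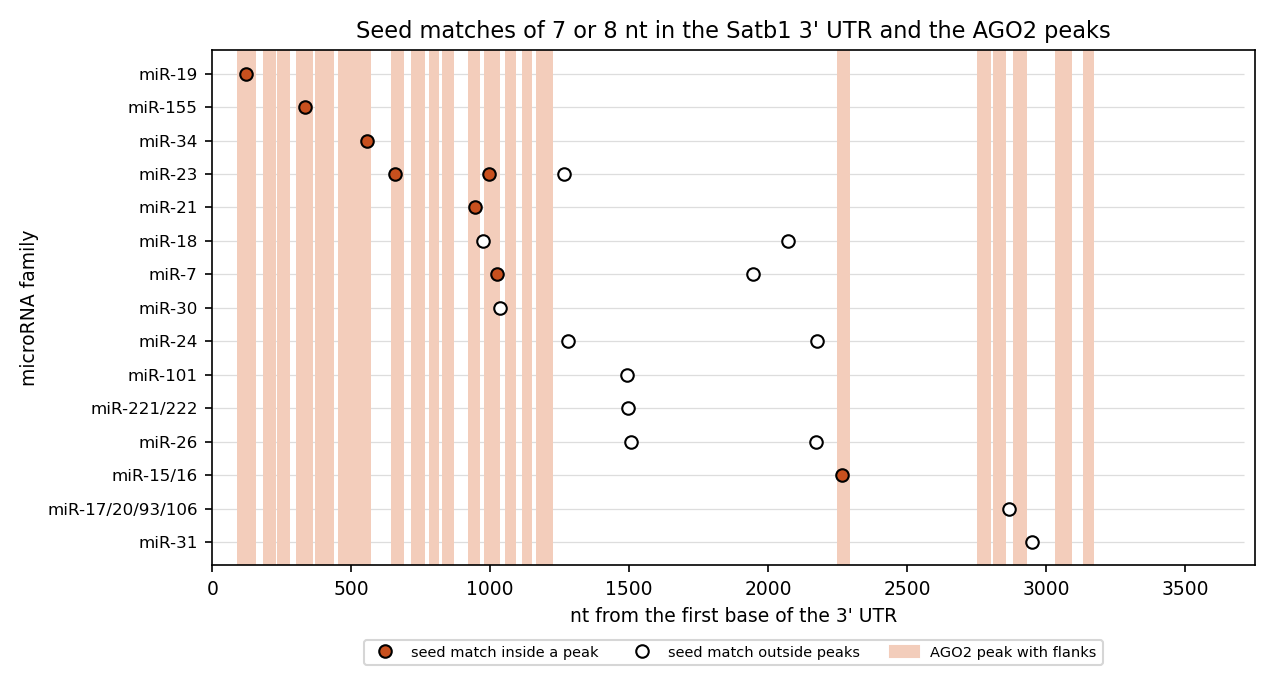
Seed matches of 7 or 8 nt in the longest annotated Satb1 3' UTR, 1 row per microRNA family (vertical axis), against the distance in nt from the first base of the 3' UTR (horizontal axis); shaded bands are the AGO2 peaks with their 6-nt flanks, filled circles are the 8 matches inside a peak and open circles the 13 outside. The open circles are most numerous between the last peak of the block, ending at 1221, and peak 17, starting at 2252.

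A long middle part of the 3' UTR had no AGO2 peak although it holds seed matches. The longest annotated 3' UTR (isoform Satb1-208) is 3711 nt, 23.8% of it inside peaks and 30.8% with the flanks. It holds 21 matches of 15 families, and 8 of them (38.1%) lay wholly in a peak with its flanks. Up to the end of peak 16, at 1221 nt, 7 of 9 matches were in a peak. Peaks cover much of this stretch, 654 nt of it without their flanks. Whether matches lay in peaks more often than this coverage gives was not tested. Between peaks 16 and 17 there were 1030 nt without a peak and 9 matches, of 7 families, among them miR-23, miR-24, miR-101, miR-26, miR-7 and miR-18. Within the first 16 peaks the gaps were 9 to 84 nt. Which of these microRNAs the cells contained was not measured in the table.

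The last 6 peaks lay far downstream, had few reads, and included the widest differences. From position 2252 to 3164, peaks 17 to 22 held 5.32% of the reads, 52.1 of them wild-type and 154 knockout, 2.95-fold more. Peak 17, with its 8mer to miR-15/16, had 5.94 and 28.6 reads. Peak 18 had 0.991 wild-type and 23.7 knockout reads, and its p in the authors' deposited table was 0.0289 (adjusted p = 0.978). Peak 19 had 0.976 and 17.4 (p = 0.283 in the authors' deposited table). Both had under 1 scaled read in wild type, so their ratios rest on very few reads.

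Peak 20 was the best read of the distal peaks, with 31.5 wild-type and 59.1 knockout reads, 1.88-fold more. Peak 21 had 7.88 and 24.9. Peak 22 was the exception, with 4.82 wild-type reads and the knockout listed at 0, and it was the least-read Satb1 peak.

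The annotation holds shorter Satb1 3' UTRs that bear on which peaks a transcript can carry. Of the 14 GENCODE transcripts of the gene (chr17:51736187-51833290, minus strand), 7 have a stop codon and 3' UTRs of 422 to 3711 nt. Isoform Satb1-204 ends at 1004 nt, 21 nt into peak 13 and downstream of an AATAAA polyadenylation signal at 954 to 959, which begins inside peak 12. All 22 peaks lie whole in the 2 longest isoforms and 12 lie whole in Satb1-204. Peaks 14 to 22, which lie wholly beyond its end, held 204 wild-type and 339 knockout reads, 1.66-fold more. Peaks 1 to 12 held 950 and 1570, 1.65-fold more, so the sums before and after this annotated end were close in fold. Peak 13, which spans the end, is in neither sum and held 20.8% of the reads, 2.42-fold more in the knockout. The part after the end was uneven. Knockout over wild type was 1.10 for peak 14, 0.87 for peak 15 and 1.45 for peak 16, and 2.95 for the sum of peaks 17 to 22.

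The Satb1 peaks were AU-rich, and the better-read ones tended to be more so. A and U made up a median of 68.2% of a Satb1 peak sequence (45.7 to 84.6%) and 63.2% of a peak in the whole table (quartiles 56.4 and 69.2%), and 61.4% of the Satb1 3' UTR. Spearman's rho between AU content and reads over the 22 peaks was 0.56, and 0.05 over all peaks. The most AU-rich Satb1 peak, peak 22 (84.6%), was however the least read (4.82 reads). The points share 1 mRNA and the same pooled libraries. The log2 ratio of a peak had a rho of 0.12 with its reads and -0.20 with its position.

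Short RNA motifs were searched on the mRNA strand. The AU-rich element core ATTTA was in peaks 8 and 21 (9.09%, beside 11.6% of all peaks). The polyadenylation signal AATAAA was in the sequences of peaks 12 and 22 (9.09%, beside 9.57%). The motif TGTANATA, bound by Pumilio proteins, was in peak 21 (4.55%, beside 3.70%). None of these matches overlapped a listed seed match. Peaks were 24 to 72 nt wide with a median of 36.5 nt, and those of the table had a median of 39 nt.

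Compared with other genes, Satb1 stood at the knockout-high end. Among the 56 genes with at least 20 peaks, it had the highest share of peaks with more reads in the knockout, 86.4% (median of these genes 46.2%), and the lowest log2 ratio of summed reads. Among the 937 genes with at least 5 peaks it was 33rd from the lowest, and the median was 0.05 (quartiles -0.23 and 0.37). Among the 108 of them with at least 1000 reads it was 2nd, at -0.84, after Gata3 at -0.88 and before Il2ra at -0.77, and the median was -0.06. The gene was picked with these values known, so the ranks are no test.

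The 5 genes nearest to Satb1 in log2 number of peaks, log2 summed reads, log2 ratio of summed reads and share of the most-read peak (Euclidean distance over these 4 measures of the pooled table, each divided by its SD over the 937 genes) were Zfp280b, Scd2, Tet2, Txnip and Cd28. Zfp280b, the closest, had 18 peaks with 1042 wild-type and 1604 knockout reads. Scd2, a fatty acid desaturase gene, had 34 peaks with 1487 and 2205, and Tet2, a DNA demethylation enzyme gene, had 21 peaks with 1451 and 1859. Txnip, which restrains glucose uptake, had 15 peaks with 751 and 1123, and the costimulatory receptor gene Cd28 had 28 peaks with 1639 and 2111. All 5 had more reads in the knockout, and this ratio is among the measures that chose them.

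Other lymphoid transcription factor genes differed in direction. Irf4, a factor of effector T cells, had 1232 wild-type and 1849 knockout reads, with 24 of 34 peaks higher in the knockout. Ets1, a factor of lymphocyte development, had 334 and 186, with 3 of 18 peaks higher in the knockout. Ikzf3, the gene of Aiolos, had 54.2 and 41.3 over 4 peaks. Per 100 nt of covered peak length, Satb1 held 438 reads, Irf4 237, Ets1 67.3 and Ikzf3 54.9. The differences between these genes were not tested.

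**Figure D4:**
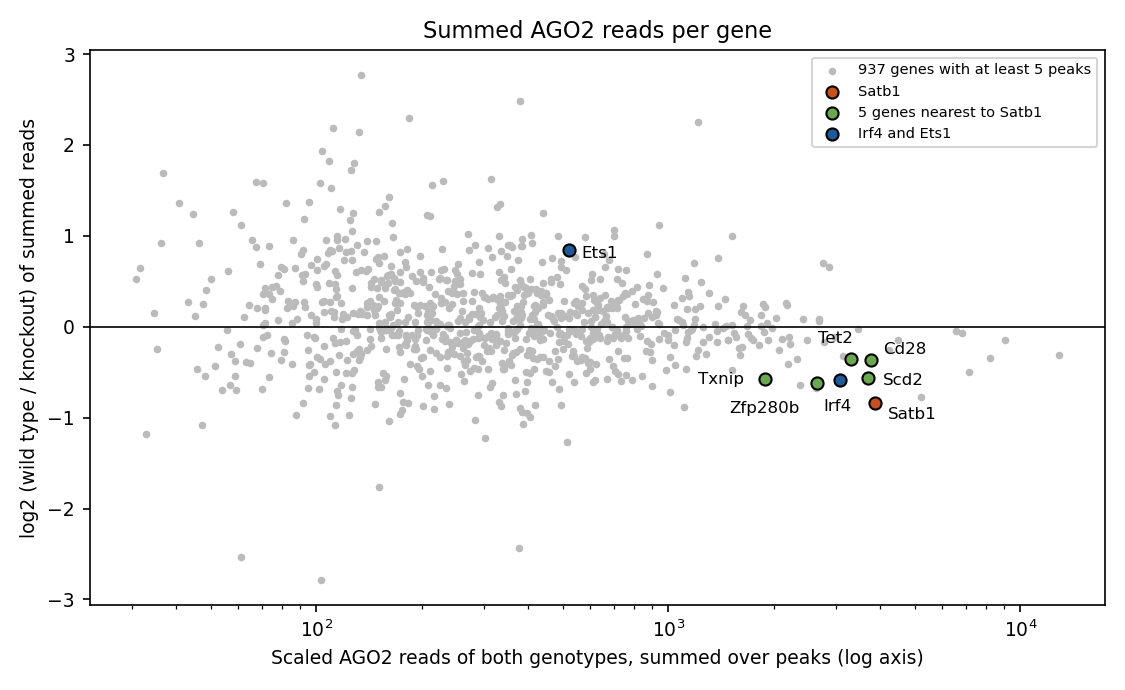
Log2 ratio of summed reads, wild type over knockout (vertical axis), against the summed scaled AGO2 reads of both genotypes (horizontal log axis), 1 point per gene for the 937 genes with at least 5 peaks; Satb1, its 5 nearest genes, Irf4 and Ets1 are named. Satb1 lies at 3868 reads and -0.84, below Irf4 at -0.59, and Ets1 lies above 0 at 0.84.

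The genes of proteins that organise chromatin or work with SATB1 had 1000 wild-type and 1100.2 knockout reads in all. Of 31 genes, 19 had peaks, 62 in all, with a median log2 ratio in the authors' deposited table of -0.05, beside 0.20 over all peaks. No peak was lower and none higher in the knockout at an adjusted p below 0.05, and at an unadjusted p below 0.05 there were 2 lower and 1 higher. Over all peaks the adjusted shares were 0.574% and 0.0273% and the unadjusted ones 2.72% and 1.48%, so these counts of 62 are near the background. Rad21, a cohesin subunit gene, had 417 wild-type and 476 knockout reads. Ctnnb1, the beta-catenin gene, had 142 and 171. Kat2b, a histone acetyltransferase gene, had 74.5 and 64.2, and Ctcf, the loop anchor that works with cohesin, had 53.4 and 74.5.

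T lineage factors and loci where SATB1 is known to act were mixed. Of 22 genes, 16 had peaks, 152 in all, with a median log2 ratio in the authors' deposited table of -0.02. Summed reads were higher in the knockout for 9 of the 16. No peak passed the adjusted threshold in either direction, and at an unadjusted p below 0.05 there were 3 lower and 3 higher of 152, near the 2.72% and 1.48% of all peaks. The 4 with the most reads were the IL-2 receptor alpha chain gene Il2ra (1934 in wild type and 3293 in the knockout), Bcl11b, a factor of T cell commitment (912 and 1008), Ikzf1, the gene of Ikaros (827 and 915), and the IL-7 receptor gene Il7r (735 and 569). Gata3, the master factor of type 2 helper cells, had 391 and 719, with 9 of 11 peaks higher in the knockout.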

How the data were processed

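The authors' deposited table lists AGO2 peaks in 3' UTRs. Bowtie 0.12.7 and mm9 are named per the submitters' processing notes. Not given in the sources used here: how peaks were called, reads scaled, duplicates treated and p-values computed. The authors deposited log2 reads by genotype, a log2 ratio of wild type over knockout, and a p-value of differential binding, per the file headers. Genotype columns and ratio matched to within 6e-05. The log2 columns were read as log2(1 + scaled reads), so ratios of low peaks are understated, and were reversed and summed.

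The Benjamini-Hochberg adjustment ran over all 14634 peaks (threshold 0.05). Seed matches used RefSeq mature sequences, found for 29 of 30 listed families (miR-150 was not searched), in the deposited sequence, which extends 6 nt beyond each Satb1 peak on both sides. Positions of peaks in the 3' UTR agreed exactly between the table and GENCODE M21 for all 22 peaks. The gene and the lists were chosen with earlier results of these data known. By rule, every Satb1 peak, its 5 nearest genes and the 4 most-read members of each list are named. Gata3, Irf4, Ets1, Ikzf3, Dmtf1, Clint1, Setd8 and the division into blocks of peaks were added after values were seen. Scripts were tested on simulated data. Python 3.11.15, NumPy 2.4.6, pandas 2.3.3, SciPy 1.17.1 and Matplotlib 3.10.9 were used.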

Additional observations from a re-analysis of the deposited data

How the results depend on the processing

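No paired analysis was possible because the table pools the libraries of a genotype, and for the same reason no library could be left out. With no replicates or depth, a log2 value was taken as moved when it changed by over 0.1. The log2 ratio of the summed Satb1 reads (-0.84) was -0.95 without the most-read peak and between -0.84 and -0.79 under the other 5 alternatives (a pseudocount of 0.5, at least 10 reads, reads in both genotypes, centring on all reads and, added after seeing the data, leaving out peaks 12 and 13). The median peak ratio (-0.86) was -1.06 when centred on the median of all peaks and between -0.91 and -0.87 under 2 others. The number of Satb1 peaks lower in the knockout was 0 under all 5 alternatives, p below 0.05 without adjustment among them. The number higher was 3 without adjustment and 0 at thresholds of 0.1 and 0.01 and over peaks with reads in both genotypes (added later). The miR-155 site count was 1 under both alternatives, and 7 peaks held a listed site, or 6 without the 7mer-A1 class.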

Other observations

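Peaks with like log2 ratios differed widely in their deposited p-values. Peak 16 of Satb1 had a log2 ratio of -0.53 and p = 0.986 in the authors' deposited table. Peak 3, at -0.45, had p = 0.197 there. Peak 2, at -1.39, had p = 0.901 in the authors' deposited table. The table holds 6578 distinct p-values over 14634 peaks, and 73.8% of peaks share theirs with another peak. The p of peak 13, 0.0356, was also the smallest p of Rad21 in the authors' deposited table.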
